A study of Homo sapiens with 18 samples.

Results

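The genes described here are 10 that encode proteins which mark the branch point of an intron for the spliceosome. They are *SF3A1*, *SF3A2* and *SF3A3*, the 3 subunits of the SF3A complex, *SF3B1*, *SF3B2*, *SF3B3*, *SF3B4* and *SF3B5* of the SF3B complex, and *U2AF2* and *SF1*, whose products bind the end of the intron before U2 arrives. They were taken as a fixed list of symbols, each paired with its Ensembl identifier, and all 10 of the 57500 genes in the count tables were found and tested in every comparison.

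RNA was sequenced from 2 cancer cell lines, ES8 from a Ewing sarcoma and Rh30 from an alveolar rhabdomyosarcoma. In these lines *DNAJC17*, which encodes a J-domain co-chaperone with a C-terminal RNA recognition motif (RRM), was silenced by CRISPRi, where an sgRNA leads dCas9-KRAB to a promoter. Each line gave 3 groups of 3 replicates (A, B and C), 18 libraries in all. Parental cells received sgCTL, a non-targeting control, or sgDNAJC17, and cells that stably expressed a lentiviral 3xFLAG-DNAJC17-dRRM transgene without the RRM (ΔRRM) received sgDNAJC17. All were kept in puromycin for 72 hours after the sgRNA was delivered. There were no ΔRRM cells with sgCTL, so the transgene, the making of the ΔRRM line and the sgRNA cannot be told apart in a comparison of ΔRRM with parental cells. The methods describe replicates as cells plated in triplicate, without saying whether these were separate experiments, so p-values measure the spread between these libraries, which may be technical.

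An intron is recognised in steps. SF1 binds the branch point sequence and U2AF2, the large U2AF subunit, binds the pyrimidine tract that follows it. The U2 small nuclear ribonucleoprotein (snRNP) then replaces SF1, its RNA pairs with the branch point, and the SF3A and SF3B complexes hold that helix in place, with SF3B1 closing around the branch point adenosine. SF3B1 is the target of several splicing inhibitors and is recurrently mutated in leukaemias and myelodysplasia.

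Library totals ran from 35342393 to 48245989 counts. In the sgDNAJC17 libraries of parental cells, *DNAJC17* fell by 2.84 on the log2 scale in ES8 and fell by 2.19 in Rh30. In ΔRRM cells it was higher than in sgCTL by 4.64 in ES8 and 4.99 in Rh30, a signal that includes reads from the transgene. Replicate A of ES8 sgDNAJC17 differed most from the other replicates of its group. The Rh30 lineage markers *MYOD1*, *MYOG*, *DES*, *FGFR4* and *CHRNA1* summed to between 2976 and 3075 CPM (counts scaled to a library total of 1000000, with TMM factors over all libraries) in Rh30 sgCTL, and the Ewing markers *NKX2-2*, *NR0B1*, *STEAP1*, *PRKCB* and *CD99* to between 689.5 and 711.5 in ES8 sgCTL. In Rh30 sgCTL, *NKX2-2* had no count in any library, and *CD99*, which both lines express, was at 345 ± 15.1 CPM (SD, n = 3). Groups are always of 3 libraries below, and a value per library is given in the order A, B, C.

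Positions are those of the files, on GRCh38. *SF3B1* spans chromosome 2 from 197389784 to 197435091 on the minus strand, and *SF3B3* chromosome 16 from 70523788 to 70577670 on the plus strand. *SF3B4* spans chromosome 1 from 149923317 to 149928344 on the minus strand. *SF3B5* is the exception in structure, a single exon of 693 bases on chromosome 6, from 144094881 to 144095573 on the minus strand. The other genes had from 7 merged exon blocks (*SF3B4*, 2245 exonic bases) to 29 (*SF3B3*, 12419 exonic bases). The GC content of their transcripts ran from 39.7% in *SF3B1* to 63.3% in *SF3A2*, around a median of 49.4% for protein-coding genes. *SF3A2* shares 398 exonic bases, 12.7% of its own, with *PLEKHJ1* on the opposite strand, and *SF3A1* shares 218, or 3.44%, with *CCDC157*. The strand setting of the counting is not given in the sources used here. The snoRNA genes in the introns of *SF3B3* held at most 4 counts in a library and processed pseudogenes of the members at most 9.

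In control cells, the mRNAs of these proteins were far from equal in amount, and *SF3B5* set the 2 lines apart. Levels between genes are compared per length, as CPM per kb of exonic sequence in the files, which counts all annotated exons and so lowers genes with many of them. In ES8 sgCTL, *SF3B5* came first at 164 ± 3.45 CPM per kb (SD, n = 3), then *SF3B4* at 127 ± 4.44, *U2AF2* at 119 ± 2.40 and *SF1* at 73.5 ± 1.24. *SF3B1*, the gene of the protein that grips the branch point, was last at 29.9 ± 0.641. Only *SF3B3* at 36.2 and *SF3A2* at 35.9 overlapped as neighbours in that order. In Rh30 sgCTL, *SF3B5* was at 670 ± 44.1 CPM per kb (SD, n = 3), followed by *U2AF2* at 102 ± 3.01 and *SF3B4* at 82.9 ± 1.93, and *SF3B3* was last at 26.5 ± 0.483. *SF3B1* and *SF3A2* overlapped as neighbours there.

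The question of whether the lines differ at the start was answered with the 3 sgCTL libraries of each. Of the 10 genes, 4 were higher in Rh30 and 5 lower, beside 42% of all 17925 genes tested higher and 45.5% lower, so being called was common in this comparison. A call needed an adjusted p under 0.05 from the quasi-likelihood test of edgeR, adjusted by the Benjamini-Hochberg method over all genes tested, with no fold requirement. *SF3B5*, which encodes the smallest SF3B subunit, had 115, 114 and 111 CPM in ES8 and 429, 486 and 477 CPM in Rh30. Every Rh30 library lay far above every ES8 library, a log2 difference of 2.02 (standard error, SE, 0.05, adjusted p = 2.87e-33). *SF3A3*, an SF3A subunit with a zinc finger, was higher in Rh30 by 0.54 (SE 0.04, adjusted p = 1.18e-14) and *SF3B1* by 0.31 (SE 0.05, adjusted p = 4.61e-08). *SF3B4*, an SF3B subunit with paired RNA recognition motifs, was at -0.63 in Rh30 against ES8 (SE 0.05, adjusted p = 2.39e-16). *SF3B3*, a large propeller-shaped subunit of SF3B, was at -0.47, *SF1* at -0.39, *U2AF2* at -0.24 and *SF3B2* at -0.12, all called lower, and *SF3A1* at 0.10 was called higher. *SF3A2* was at -0.05 (95% interval -0.15 to 0.05) and was not called. When the counts were corrected for the GC content and length of genes, *SF3A2* turned to 0.31 and *SF3B2* to 0.11, both called higher, and *U2AF2* turned to 0.07 and lost its call. With counts scaled by library size alone *SF3A2* was called lower at -0.26 and *SF3A1* turned to -0.12. The call of *SF3A1* was also lost without any 1 of the 3 ES8 libraries and in 5 of 9 alternative fits, and that of *SF3B2* without Rh30 replicate C.

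In the ES8 knockdown *SF3A2*, *SF3B4*, *SF3B5*, *SF3A1* and *SF1* rose, and none fell. That is 5 of 10 called higher, where 13.6% of 17143 genes were called higher and 13.8% lower. The median log2 fold change of the 10 was 0.18, against -0.02 over all genes tested. The per-library plot shows the rise in ES8. In ES8 ΔRRM cells the means of these 5 genes lay nearer to sgCTL than to the knockdown. The 5 were picked by their high knockdown values, and few genes of any kind differed between ES8 ΔRRM and sgCTL. Their position therefore says nothing particular to them, and the share of all such genes was not computed.

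**Figure D1:**
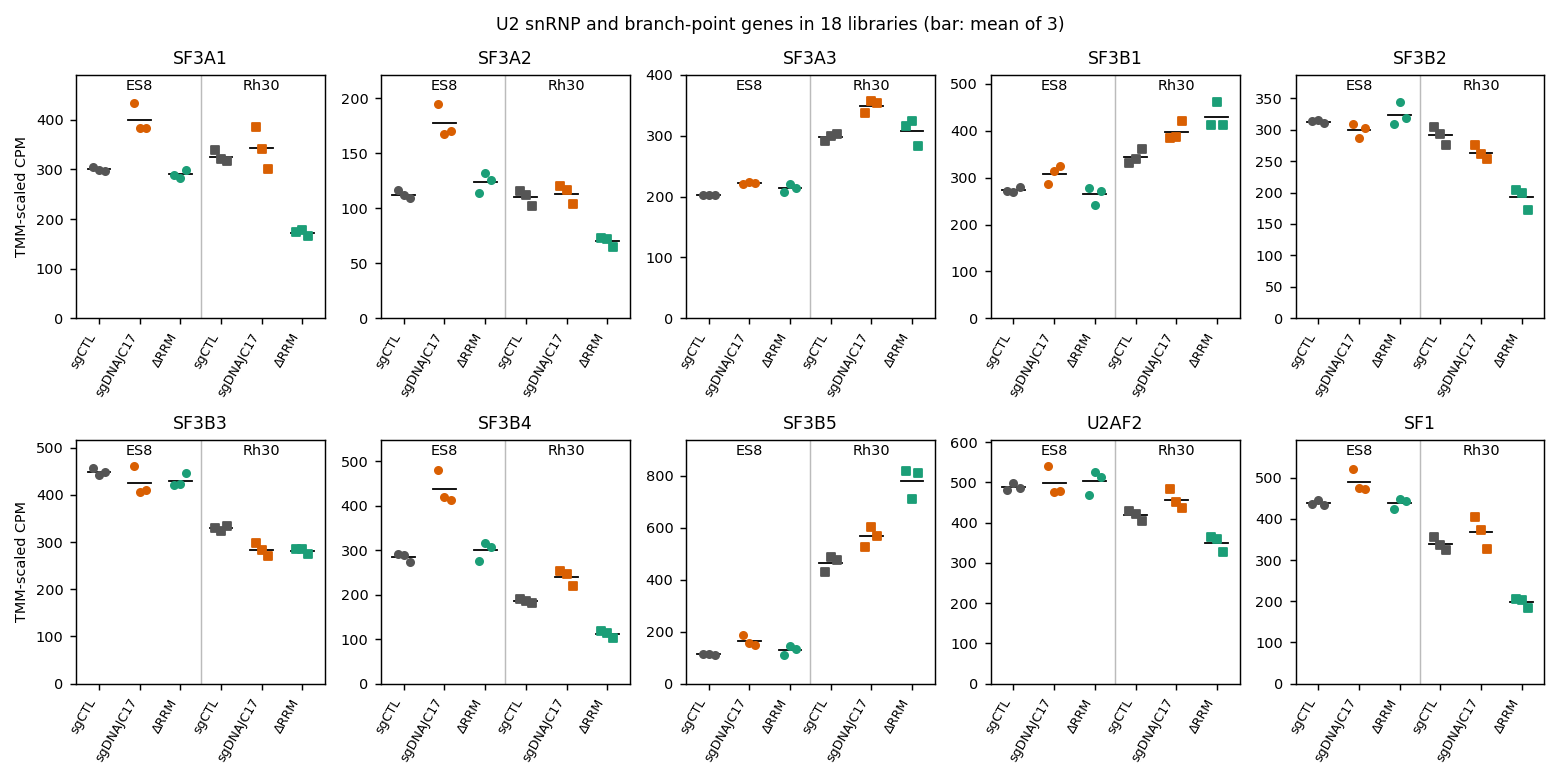
TMM-scaled CPM (vertical axes, from 0) of the 10 genes in each of the 18 libraries, by line and group, with a bar at the mean of 3 replicates. *SF3B4* reaches 414 to 480 CPM in ES8 sgDNAJC17 against 273 to 291 in sgCTL, and *SF3B5* is highest in Rh30 ΔRRM at 710 to 818 CPM.

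*SF3A2*, which encodes another zinc finger subunit of SF3A, had 116, 112 and 109 CPM in ES8 sgCTL and 195, 168 and 170.2 CPM in sgDNAJC17. The groups did not overlap, and the log2 fold change was 0.67 (SE 0.07, adjusted p = 2.77e-04). *SF3B4* went from 291, 290 and 273 CPM to 480, 419 and 414 CPM, with replicate A the highest knockdown library. Its log2 fold change was 0.63 (SE 0.06, adjusted p = 2.92e-04). *SF3B5* had 187, 155 and 148 CPM after knockdown, all above its sgCTL values, a log2 fold change of 0.54 (SE 0.08, adjusted p = 0.00157).

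*SF3A1*, the largest SF3A subunit, had 305, 299 and 298 CPM in sgCTL and 433, 384 and 384 CPM in sgDNAJC17, a log2 fold change of 0.42 (SE 0.06, adjusted p = 9.94e-04). *SF1* rose least, by 0.17 (SE 0.05, adjusted p = 0.0418), from between 433 and 447 CPM to between 473 and 522 CPM. Its call was kept in only 1 of the 6 fits that left out a library, the one without sgDNAJC17 replicate A. *SF3B1* at 0.18 (adjusted p = 0.0501) and *SF3A3* at 0.14 (adjusted p = 0.0565) missed the threshold by little, although their groups did not overlap. Both were called with the GC content and length correction, *SF3B1* at 0.36 and *SF3A3* at 0.16, which made 7 of 10 called, all higher. The same correction called 43.8% of all genes in either direction. Of the 9 alternative fits, *SF3B1* was called in 7 and *SF3A3* in 5. *SF3B2* at -0.05 (95% interval -0.16 to 0.06), *SF3B3* at -0.07 (95% interval -0.20 to 0.06) and *U2AF2* at 0.04 (95% interval -0.09 to 0.17) were not called. Replicate A decided part of this. Without it, *SF3A3*, *SF3B1* and *SF3B3* were also called, 8 of 10 in all, with *SF3B3* lower at -0.12. Calls then rose over the whole table, to 45.3% of all genes in either direction. *PLEKHJ1*, which shares exons with *SF3A2*, was at -0.11 in the same comparison, and the part of shared reads in the change of *SF3A2* was not tested.

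In Rh30, knockdown raised *SF3B4*, *SF3B5*, *SF3A3* and *SF3B1* and lowered *SF3B3*. Of all 15391 genes tested, 16.1% were called higher and 16.2% lower, beside 4 and 1 of the 10. The median of the 10 was 0.14, against 0.00451 over all genes. *SF3B4* had 191, 186 and 182 CPM in sgCTL and 254, 246 and 220 CPM in sgDNAJC17, a log2 fold change of 0.38 (SE 0.06, adjusted p = 7.14e-04). *SF3B5* rose from 429, 486 and 477 CPM to 527, 604 and 568 CPM, a log2 fold change of 0.30 (SE 0.07, adjusted p = 0.00512). Neither gene's groups overlapped.

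*SF3A3* rose from between 291 and 303 CPM to between 337 and 356 CPM, a log2 fold change of 0.24 (SE 0.06, adjusted p = 0.00583). *SF3B1* went from 332, 340 and 361 CPM to 384, 386 and 421 CPM, a log2 fold change of 0.22 (SE 0.06, adjusted p = 0.0163). *SF3B3* fell by 0.20 on the log2 scale (SE 0.06, adjusted p = 0.0175), from between 323 and 335 CPM to between 270 and 297 CPM. *SF3A1* at 0.09 and *SF3A2* at 0.06, which rose in ES8, were not called in Rh30, and neither were *SF3B2* at -0.13, *U2AF2* at 0.14 (adjusted p = 0.0833) and *SF1* at 0.14. With the replicate letter as a block, which fits the shared deviations of same-letter libraries in this comparison, 8 of 10 were called. That fit called 47% of all genes in either direction, more than the main fit. *U2AF2* and *SF1* then rose and *SF3B2* fell, while *SF3A1* and *SF3A2* were still not called. The calls of *SF3B3* and *SF3B1* were near the threshold. With each library left out in turn, *SF3B3* stayed between -0.23 and -0.17, with adjusted p up to 0.0767. *SF3B1* stayed between 0.17 and 0.26, with adjusted p up to 0.0746. *SF3B3* kept its call in only 1 of the 6 fits that left out a library, the one without sgDNAJC17 replicate A. *SF3B1* lost its call without sgCTL replicate A, without sgCTL replicate B and without sgDNAJC17 replicate C, and the fewest called was 3. Without sgDNAJC17 replicate A *SF3B2* was called lower at -0.16, and without sgDNAJC17 replicate C *SF1* was called higher at 0.21. Corrected for GC content and length, beside 31.5% of all genes called in either direction, 8 of 10 were called, all higher. *U2AF2* at 0.30, *SF1* at 0.28, *SF3A2* at 0.20 and *SF3A1* at 0.17 were among them, and *SF3B3* at -0.04 was not.

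The difference between the lines in the response to knockdown was tested as an interaction over the 12 parental libraries, where 9.78% of 18899 genes were called in either direction. Among the 10, only *SF3A2* was called, with a response lower in Rh30 by 0.59 on the log2 scale (SE 0.11, adjusted p = 0.00265). The target *DNAJC17* was itself called, at 0.68 (SE 0.18, adjusted p = 0.0199), having fallen less in Rh30. Its part in the difference of *SF3A2* was not tested. *SF3A1* was at -0.31 (95% interval -0.54 to -0.08, adjusted p = 0.081). It was called in 6 of the 9 alternative fits, with adjusted p from 0.0082 to 0.0716 over all 9. They include the replicate block (adjusted p = 0.0307), and it was also called without Rh30 sgDNAJC17 replicate A, at -0.39. For *SF3B4* the difference was -0.23 (95% interval -0.44 to -0.01, adjusted p = 0.175) and for *SF3B5* -0.21 (95% interval -0.46 to 0.04). The other 6 lay between -0.11 and 0.13. Among them *U2AF2* went from 0.13 to 0.34 with the GC content and length correction and was called (adjusted p = 1.95e-04). With the replicate block added to that correction, *SF1* at 0.17, *SF3A1* at -0.19 and *SF3B4* at -0.15 were called as well, 5 in all. The correction called 17.75% of all genes, and 22.7% with the block.

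**Figure D2:**
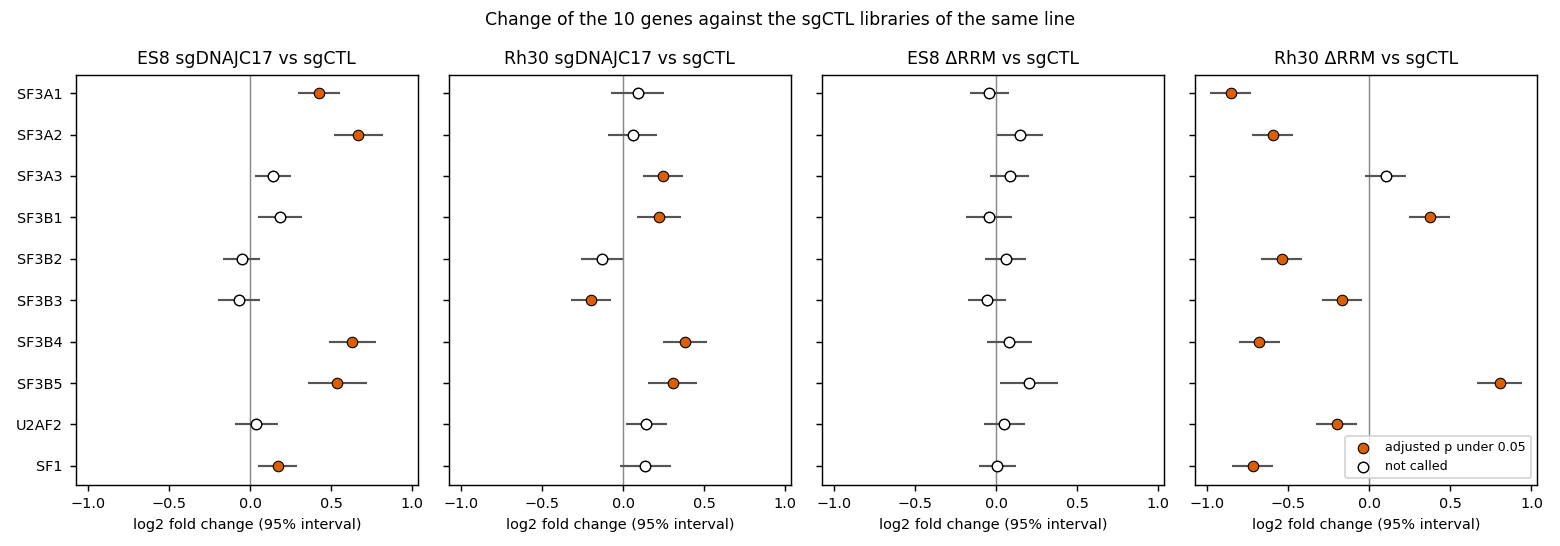
Log2 fold change (horizontal axes, with 95% intervals) of the 10 genes in sgDNAJC17 and in ΔRRM libraries against sgCTL of the same line, filled where the adjusted p is under 0.05. In ES8 the ΔRRM values stay between -0.06 and 0.20 and none is filled, whereas in Rh30 they run from -0.86 to 0.80.

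In ES8 ΔRRM cells none of the 10 differed from sgCTL by the test, but few genes of any kind did, with 0.093% of 17199 called higher and 0.0814% lower. DESeq2 also called 0 of the 10, and at an unadjusted p under 0.05 the count was 2. *SF3B4* had 275, 317 and 307 CPM, around its sgCTL values. *SF3A2* had 114, 132 and 126 CPM, a log2 difference of 0.14 (95% interval 0.0021 to 0.29) from sgCTL, and *SF3B5* had 111, 146 and 132 CPM, a difference of 0.20 (95% interval 0.02 to 0.38). *SF3A1* was at -0.04 (95% interval -0.16 to 0.08). Without ΔRRM replicate A, *SF3B5* was called, at 0.29. The 3 replicates of this group were spread more widely than those of sgCTL for each of these genes.

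Set directly against the knockdown libraries, ES8 ΔRRM cells had less of 3 of the genes that had risen. *SF3B4* was at -0.55 on the log2 scale (SE 0.09, adjusted p = 0.00299), *SF3A2* was at -0.52 (SE 0.09, adjusted p = 0.00444) and *SF3A1* at -0.46 (SE 0.08, adjusted p = 0.00469). Over all 17099 genes, 7.35% were called higher and 7.36% lower. *SF3B5* at -0.33 (95% interval -0.58 to -0.08, adjusted p = 0.071) and *SF1* at -0.16 were not called, although no ΔRRM library reached the lowest knockdown library for either. This comparison shares the knockdown libraries with the one against sgCTL, so high values in them enter both. With the GC content and length correction, *SF3B5*, *SF3B1* and *SF1* were also called lower, 6 in all, and without sgDNAJC17 replicate A *SF3B1* was called at -0.28. The correction called 32.9% of all genes in either direction.

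Rh30 ΔRRM cells departed from sgCTL in a different way. Here *SF3A1*, *SF1*, *SF3B4*, *SF3A2*, *SF3B2*, *U2AF2* and *SF3B3* were called lower and *SF3B5* and *SF3B1* higher, 9 of 10, in a comparison where 33.8% of 15442 genes were called higher and 35% lower. The median of the 10 was -0.37, against -0.01 over all genes. *SF3A1* had 339, 321 and 316 CPM in sgCTL and 174, 178 and 166 CPM in ΔRRM. The groups were far apart, with a log2 fold change of -0.86 (SE 0.06, adjusted p = 6.63e-19). *SF1* went from 356, 338 and 324 CPM to 206, 204 and 184 CPM, a log2 fold change of -0.72 (SE 0.06, adjusted p = 1.07e-15). *SF3B4* went from between 182 and 191 CPM to 119, 115 and 102 CPM, a log2 fold change of -0.68 (SE 0.06, adjusted p = 9.02e-15). In ES8 neither gene was called against sgCTL in ΔRRM cells.

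*SF3A2* fell from 116, 112 and 102 CPM to 72.9, 71.8 and 65.1 CPM, a log2 fold change of -0.60 (SE 0.06, adjusted p = 1.68e-12). *SF3B2*, whose product pairs with SF3B4 in the complex, fell from between 275 and 304 CPM to between 173 and 204 CPM, a log2 fold change of -0.54 (SE 0.06, adjusted p = 4.17e-11). *U2AF2* at -0.20 (adjusted p = 0.00372) and *SF3B3* at -0.17 (adjusted p = 0.0118) fell less. *SF3B5* moved the other way, to 818, 710 and 809 CPM, a log2 fold change of 0.80 (SE 0.07, adjusted p = 5.00e-16). Per kb it made up 72.7% to 77.1% of the summed level of the 10 genes in these libraries, against 55.6% to 59.2% in Rh30 sgCTL. *SF3B1* rose to 413, 462 and 412 CPM, a log2 fold change of 0.37 (SE 0.06, adjusted p = 7.26e-07). *SF3A3* at 0.10 (95% interval -0.02 to 0.23) was the 1 gene not called. Without sgCTL replicate C *SF3B3* lost its call, at -0.16.

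Across the whole table, changes in Rh30 followed the GC content and length of transcripts, and changes in ES8 followed length as well. In Rh30 ΔRRM against sgCTL, the quartile of protein-coding genes with the lowest GC content had a median log2 fold change of 0.32, and the quartile with the highest, from 56.9% up, had -0.44. For exonic length the medians were 0.28 in the shortest quartile and -0.32 in the longest. In ES8 ΔRRM against sgCTL the same medians were -0.04 and 0.02 for GC content and 0.09 and -0.08 for length. Rank (Spearman) correlations of the change with length were -0.313 in Rh30 ΔRRM and -0.357 in ES8 ΔRRM. For the knockdowns they were -0.25 in Rh30 and -0.225 in ES8. With GC content they were -0.42 in Rh30 ΔRRM and 0.13 in ES8 ΔRRM, and -0.392 and 0.109 in the knockdowns of Rh30 and ES8. By the quartiles of Rh30 ΔRRM against sgCTL, *SF3A2*, *U2AF2* and *SF1* lie in that of highest GC content and *SF3B1* in that of lowest. For length, *SF3A2*, *SF3B4* and *SF3B5* lie in the shortest quartile and *SF3B1*, *SF3B2* and *SF3B3* in the longest. With the GC content and length correction, *SF3B4* at -0.86, *SF3A1* at -0.59, *SF3A2* at -0.36 and *SF1* at -0.35 were still called lower, and *SF3B5* at 0.56 and *SF3B1* at 0.37 still called higher. *SF3B2* at -0.05 lost its call, *U2AF2* turned to 0.10 and was not called, and *SF3B3* turned to 0.19 and was called higher. Counts scaled by library size alone moved the median of all genes to -0.25 and all 10 genes down with it, and *SF3A3* turned to -0.13 and was called lower. What made transcripts shift with GC content and length was not tested.

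**Figure D3:**
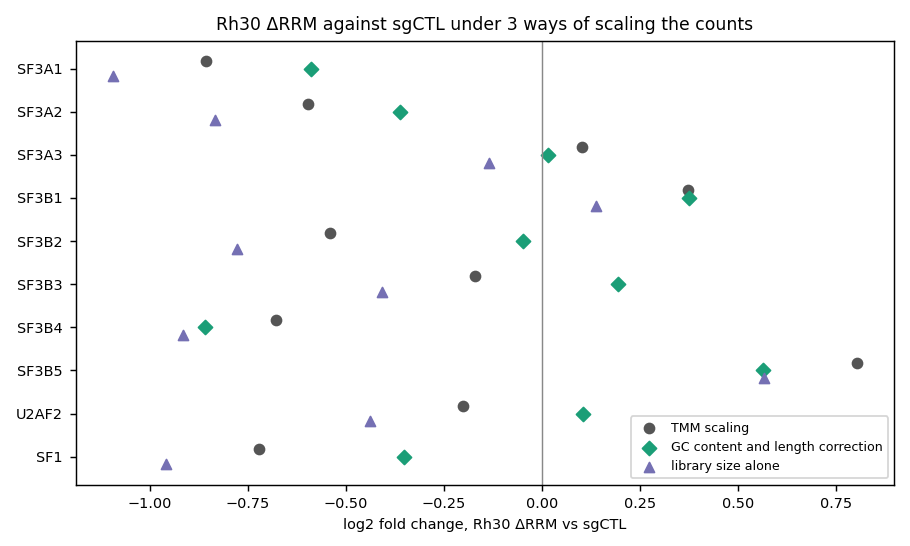
Log2 fold change (horizontal axis) of the 10 genes in Rh30 ΔRRM against sgCTL under TMM scaling (circles), with the GC content and length correction (diamonds) and with library size alone (triangles). *SF3B4*, *SF3A1*, *SF3A2* and *SF1* stay left of 0 and *SF3B5* and *SF3B1* right of 0 under all 3, while *SF3B3*, *U2AF2* and *SF3A3* cross 0.

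Some epithelial genes were also higher in Rh30 sgDNAJC17 and ΔRRM libraries than in Rh30 sgCTL. Of 16 epithelial genes, a list written with earlier results of these data known, 12 were higher in every ΔRRM library than in every sgCTL library and 11 in every sgDNAJC17 library. In ES8 the same counts were 1 and 0. The share of all genes without overlap was not computed, so these counts have no reference and cannot be read as particular to the list. The test, a different measure, called 33.8% of all genes higher in Rh30 ΔRRM and 16.1% in the Rh30 knockdown. In Rh30 the summed level of these 16 genes was 183 to 197 CPM in sgCTL, 197 to 213 in sgDNAJC17 and 242 to 264 in ΔRRM. Most of it came from *CLDN4*, *KRT7* and *AP1M2*, which sgCTL cells also expressed. *CLDN7* and *RAB25* had no count in Rh30 sgCTL, and only 6 to 8 and 1 to 3 counts per library in ΔRRM. *GRHL2* and *AGR2* had at most 6 and 7 counts in any Rh30 library. The Rh30 lineage markers summed to 2541 to 2749 CPM in sgDNAJC17 and 1965 to 2164 in ΔRRM. Their part in the changes of the 10 genes was not tested. Whether fewer cells of a type or less RNA per cell underlies a level cannot be told apart in bulk RNA.

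The lines differed in their ΔRRM values by a direct test over the 12 sgCTL and ΔRRM libraries. It called 8 of the 10 in either direction, beside 41.4% of 18854 genes. The difference, Rh30 minus ES8, was -0.81 for *SF3A1* (SE 0.08, adjusted p = 5.97e-08), -0.76 for *SF3B4*, -0.74 for *SF3A2*, -0.73 for *SF1* and -0.60 for *SF3B2*. It was 0.60 for *SF3B5* (SE 0.11, adjusted p = 1.31e-04), 0.42 for *SF3B1* and -0.25 for *U2AF2*. *SF3A3* at 0.02 (95% interval -0.15 to 0.18) and *SF3B3* at -0.11 (95% interval -0.27 to 0.04) were not called. The GC content and length correction left 6 called, beside 36.2% of all genes, and turned *U2AF2* to 0.12. The call of *U2AF2* was also lost without Rh30 ΔRRM replicate C, and *SF3B3* was called with DESeq2, at -0.15.

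Set against its own knockdown, Rh30 ΔRRM gave 1 of 10 called higher and 6 lower, beside 29.4% and 30.5% of 15309 genes. *SF3B4* was furthest down at -1.07 (SE 0.08, adjusted p = 7.47e-21), then *SF3A1* at -0.96, *SF1* at -0.87, *SF3A2* at -0.67, *SF3B2* at -0.43 and *U2AF2* at -0.36. *SF3B5* was higher by 0.49 (SE 0.08, adjusted p = 2.88e-07). *SF3B1* at 0.14, *SF3B3* at 0.02 and *SF3A3* at -0.16 were not called. Corrected for GC content and length, 3 were called higher and 6 lower, beside 59.95% of all genes called in either direction. *SF3B3* then stood at 0.23, *SF3B1* at 0.14 and *SF3A3* at -0.19, all called, and *SF3B2* at -0.13 lost its call. Without sgDNAJC17 replicate A *SF3A3* was also called, at -0.19. For *SF3B4*, the knockdown libraries lay above sgCTL and the ΔRRM libraries below it, with no overlap among the 3 groups. *SF3B5* had the order sgCTL, sgDNAJC17, ΔRRM, again with no overlap.

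Within the lines, the 10 genes did not vary as 1 set. After each line's mean was taken away, 30 of the 45 gene pairs had a correlation above 0 over the 18 libraries and 19 above 0.5, a description in which the pairs share libraries and their depth. *SF3A1* and *SF1* (r = 0.964) and *SF3A2* and *SF3B4* (r = 0.955) were the closest pairs. *SF3B4* followed the mean of the other genes most closely (r = 0.975), whereas *SF3B5* (r = -0.34) and *SF3B1* (r = -0.31) ran against it. The protein-coding genes with the pattern most like the mean of the 10, among 9461 with at least 10 CPM, were *AKAP8L* (r = 0.987), *DDRGK1* (r = 0.987), *NFYC* (r = 0.98), *ALG3* (r = 0.979) and *URGCP* (r = 0.978).

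The proteins that work with these 10 were described from lists of partner genes. The Sm proteins form the ring on the RNA of U2 and of most other spliceosomal snRNPs. All 7 of their genes, *SNRPB*, *SNRPD1*, *SNRPD2*, *SNRPD3*, *SNRPE*, *SNRPF* and *SNRPG*, rose in both knockdowns, with medians of 0.27 in ES8 and 0.32 in Rh30. The highest were *SNRPD2* in ES8 at 0.44 (SE 0.07) and *SNRPD1* in Rh30 at 0.48 (SE 0.07). In ES8 ΔRRM none of the 7 was called, with a median of 0.14. In Rh30 ΔRRM all 7 rose against sgCTL, with a median of 0.95 and *SNRPG* at 1.47 (SE 0.07). All 7 kept their rise in the ES8 knockdown with the GC content and length correction, but 4 did in the Rh30 knockdown. In Rh30 ΔRRM 4 were then higher and *SNRPD3* lower at -0.13, with the median at 0.57. Over all genes the shares called higher were 13.6% in the ES8 knockdown, 16.1% in the Rh30 knockdown and 33.8% in Rh30 ΔRRM.

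The other U2 proteins listed were SF3B6, a small RRM protein of SF3B, PHF5A, which lines the branch point pocket with SF3B1, and SNRPA1 and SNRPB2, which bind the last stem-loop of U2 RNA. *SF3B6* rose by 0.50 in ES8 and 0.58 in Rh30 on knockdown (SEs 0.06 and 0.07), and *PHF5A* by 0.31 and 0.49 (SEs 0.06 and 0.08). *SNRPB2* was called only in Rh30, at 0.54, and *SNRPA1* was called lower in ES8, at -0.19, differences between lines that the interaction did not call. In Rh30 ΔRRM all 4 were higher than in sgCTL, with a median of 0.85, led by *SNRPB2* at 1.06 and *PHF5A* at 1.04. The GC content and length correction lowered that median to 0.33, with *PHF5A* highest at 0.59, and turned *SF3B6* to -0.06, which was not called.

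**Figure D4:**
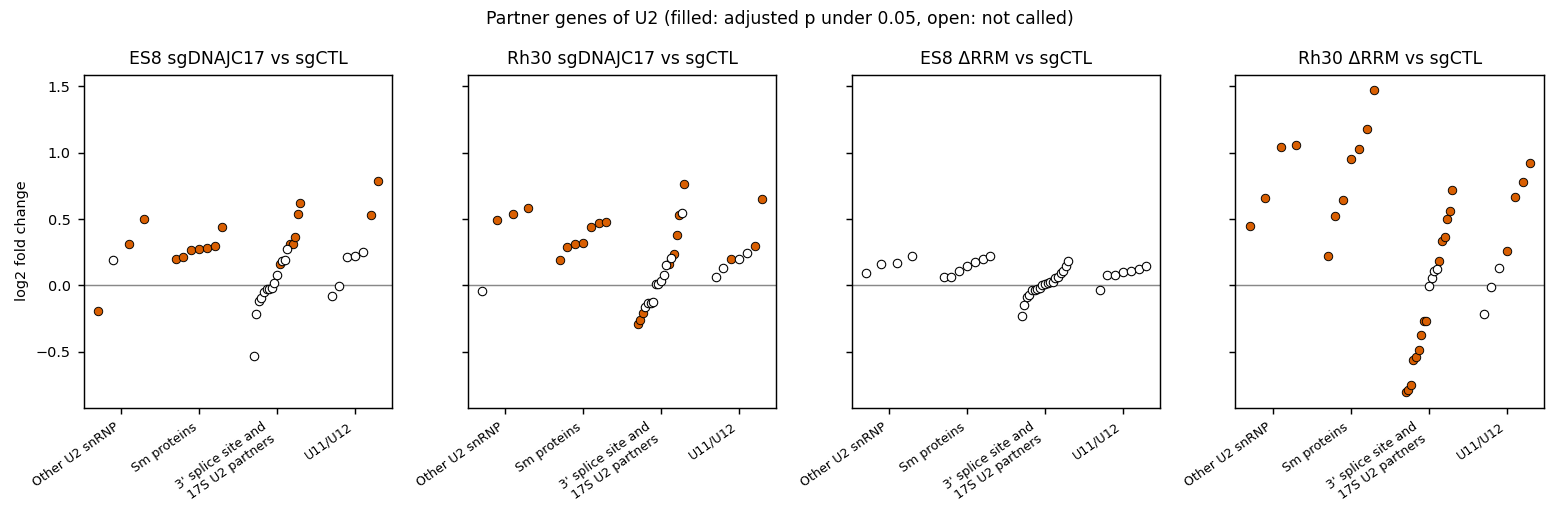
Log2 fold change (vertical axis) of each gene in 4 lists of partner genes, in sgDNAJC17 and ΔRRM libraries against sgCTL of the same line, filled where the adjusted p is under 0.05. All 7 Sm genes are filled and above 0 in both knockdowns and in Rh30 ΔRRM, and none of them is filled in ES8 ΔRRM.

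Among 19 genes whose proteins act at the end of the intron or with U2 before the branch point is fixed, 6 rose and none fell in the ES8 knockdown, and 5 rose and 3 fell in Rh30, beside 13.6% and 16.1% of all genes called higher. The 4 called higher in both were *RBM39* at 0.31 and 0.76, *SMNDC1* at 0.62 and 0.53, *PUF60* at 0.31 and 0.16, and *DHX15* at 0.16 and 0.38, in ES8 and Rh30 in turn. *RBM39* and *PUF60* encode relatives of U2AF2, and *DHX15* an RNA helicase. In ES8 ΔRRM none of the 19 was called, and in Rh30 ΔRRM 6 were higher and 9 lower, where 33.8% of all genes were higher and 35% lower.

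U11 and U12 take the places of U1 and U2 in the minor spliceosome, which shares SF3B but not SF3A. Of 7 genes for its own proteins, 2 rose in the ES8 knockdown and 3 in Rh30, and none fell, beside the same shares of all genes. Corrected for GC content and length, 5 rose in the ES8 knockdown, beside 43.8% of all genes called in either direction. *SNRNP48* rose by 0.79 in ES8 and by 0.65 in Rh30, and *ZMAT5* by 0.53 and 0.20. None of the 7 was called in ES8 ΔRRM, and 4 were higher in Rh30 ΔRRM, beside 33.8% of all genes, a count of 3 with 2 lower when library size alone set the scale.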

How the data were processed

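RNA from 18 libraries of ES8 and Rh30 cells was analysed. The authors deposited, per the file headers, a featureCounts table for each library with whole-number read counts per gene, the exon coordinates and the exonic length, without normalization. The submitters' processing notes name Trimmomatic 0.36, STAR 2.5.2b, featureCounts, Subread 1.5.2 and GRCh38. The paper's methods name an older build, but the deposited start lies within 1 kb of that in GRCh38 for 85.4% of 19032 protein-coding genes. RNA was polyadenylated, so uneven capture or degradation enters the counts.

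The test was that of edgeR 4.0.16, run in R 4.3.3 on the counts (TMM, filterByExpr, quasi-likelihood test, Benjamini-Hochberg adjustment over all genes tested). Only the groups compared entered a fit. A gene was called at an adjusted p under 0.05. The fits were tested on simulated data. Alternatives were an adjusted p under 0.01, a fold change of at least 2, DESeq2 1.42.0, its size factors in edgeR, library size alone, no filter, a minimum of 10 counts in each library, 1 fit of all libraries, a block on the replicate letter, a lowess correction (span 0.3) for GC content and length, and leaving out each library in turn. GC content came from the transcripts of another annotation, by identifier, for 55082 genes.

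Same-letter libraries shared deviations from their group means in the Rh30 knockdown (r of 0.666, 0.370 and 0.414 over genes with a mean of at least 200 counts). The main Rh30 fit did not pair the letters, and the replicate block, given as an alternative, did. In the ES8 knockdown the letters were mixed, with r of -0.171, -0.454 and 0.40 for A, B and C.

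The 10 genes, partner lists and marker lists were chosen with earlier results of these data known. Partner genes named are those called in both knockdowns in the same direction, others being named after their values were seen, and the 5 genes of like pattern had the highest r of log2 CPM (prior count 2) with the members' mean. Genes sharing exons with a member are named. Splicing was not analysed here, because the tables count whole genes. Depth sets the counting error only.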

Additional observations from a re-analysis of the deposited data

Results flagged for a closer look

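Each of the following is a difference between Rh30 and ES8 in the same contrast that the interaction term called. In the response to knockdown this was *SF3A2*, at -0.59 on the log2 scale (Rh30 minus ES8). In ΔRRM against sgCTL these were *SF3A1* at -0.81, *SF3A2* at -0.74, *SF3B1* at 0.42, *SF3B2* at -0.60, *SF3B4* at -0.76, *SF3B5* at 0.60, *U2AF2* at -0.25 and *SF1* at -0.73. With the GC content and length correction the differences for *SF3B2* and *U2AF2* lost their calls and *U2AF2* changed sign.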

How the results depend on the processing

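Of the 10 genes, the number called in the ES8 knockdown was between 4 and 8 when each library was left out in turn (8 without sgDNAJC17 replicate A), in the Rh30 knockdown between 3 and 6, in ES8 ΔRRM against sgCTL between 0 and 1, and in the interaction with knockdown between 1 and 2. With a fold change of at least 2 the count was 0 in 7 of the 9 comparisons, and 1 in Rh30 ΔRRM against knockdown (*SF3B4*) and in the sgCTL comparison (*SF3B5*). At an adjusted p under 0.01 it was 3 in the Rh30 knockdown. With the replicate block it was 8 in the Rh30 knockdown and 2 in the interaction with knockdown, and it moved no other count by over 1.5 times. Of all genes, the block called 47% and 12.2% in these comparisons in turn. Corrected for GC content and length, the count was 8 in the Rh30 knockdown and 6 in ES8 ΔRRM against knockdown. It was 2 in the interaction with knockdown, and with the block added these counts were 8, 5 and 5. The shares of all genes called were 31.5%, 32.9% and 17.75% in turn, and with the block 42.4%, 29.2% and 22.7%. The interaction with knockdown also gave 2, *SF3A2* and *SF3A1*, with DESeq2, library size alone, no filter on low counts, and all libraries in 1 fit. All libraries in 1 fit gave 5 in ES8 ΔRRM against knockdown, beside 23.4% of all genes. Values that changed sign were mostly near 0. With the GC content and length correction, and again with the block where a second value is given, these were *SF3B2* at 0.00123 and 5.90e-04 and *SF3B3* at 0.035 and 0.033 in the ES8 knockdown, *SF3B2* at 0.068 in the Rh30 knockdown, *SF3B1* at 0.064 and 0.063, *SF3B3* at 0.041 and 0.038 and *SF3B4* at -0.00101 and -9.58e-04 in ES8 ΔRRM against sgCTL, and *U2AF2* at -0.016 in ES8 ΔRRM against knockdown. In Rh30 ΔRRM against sgCTL they were *SF3B3* at 0.19 and *U2AF2* at 0.10, and between the sgCTL groups *SF3A2* at 0.31, *SF3B2* at 0.11 and *U2AF2* at 0.068. In the interaction with knockdown they were *SF3B1* at -0.095 and -0.092, *SF3B2* at 0.11 and *SF1* at 0.17, and in that with ΔRRM *SF3A3* at -0.057 and -0.058, *SF3B3* at 0.13 and *U2AF2* at 0.12 and 0.11. With library size alone they were *U2AF2* at -0.0095 in the ES8 knockdown, *SF3A2* at -0.0019 in the Rh30 knockdown, *SF1* at -0.015 in ES8 ΔRRM, *SF3A3* at -0.13 in Rh30 ΔRRM, *SF3B1* at -0.025 and *SF3B3* at -0.15 in Rh30 ΔRRM against knockdown, *SF3A1* at -0.12 between the sgCTL groups and *SF3A3* at -0.20 in the interaction with ΔRRM. That interaction put *SF3A3* at -0.016 with DESeq2, -0.00697 with its size factors and -0.026 with all libraries in 1 fit, which also gave *SF3B3* -0.0072 and *U2AF2* -0.0076 in ES8 ΔRRM against knockdown. With each library left out in turn, sign changes fell within these ranges: *U2AF2* -0.021 to 0.068 in the ES8 knockdown, *SF3B1* -0.093 to 0.017 and *SF1* -0.0050 to 0.021 in ES8 ΔRRM, *SF3B3* -0.031 to 0.070 and *U2AF2* -0.032 to 0.073 in ES8 ΔRRM against knockdown, *SF3B3* -0.015 to 0.040 in Rh30 ΔRRM against knockdown, *SF1* -0.068 to 0.068 and *SF3B1* -0.024 to 0.11 in the interaction with knockdown, *SF3A3* -0.0080 to 0.066 in that with ΔRRM, and *SF3A2* -0.076 to 0.0093 between the sgCTL groups. The causes were not tested. Each of the 10 genes had at least 1935 counts in every library, so the spread between replicates limits these comparisons, not depth.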
